A study of Mus musculus with 12 samples.

Results

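Colon was set against stomach in mice labelled Spdef knockout (KO), to see which mucin, secretory and epithelial genes keep their place along the gut when Spdef is lost. The members are 4 arrays of 12 in the series, stomach KO 1 and 2 and colon KO 1 and 2, chosen by tissue and genotype label. The other arrays are heterozygous (HET) and wild-type (WT), with 2 of stomach and 2 of colon for each genotype. All mice were 16 weeks old and C57BL/6, without treatment, and RNA came from whole, flash-frozen organs. The sources used here do not give the allele's design, the animals' sex or whether each array is a separate animal. The p-values below therefore measure the spread between these samples, which may be technical.

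Spdef is an ETS-family transcription factor of mucus-secreting cells. In the intestine it acts in the maturation of goblet cells, which release gel-forming mucins, trefoil peptides and other granule proteins. In the stomach it is known from the mucous gland cells of the antrum. Colon and stomach mucosa carry different secretory programmes: surface mucous, parietal and chief cells line the glandular stomach, and goblet cells and absorptive colonocytes line the colon.

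Levels are given as log2(intensity + 16) for 1 probe set per gene, so 1 unit is close to a doubling. A level of 6.53, the 40th percentile of the arrays, was taken as the lower limit of measurement. A difference is colon minus stomach. Where the mean of 1 tissue lay below the limit, the difference is given as at least the other mean minus the limit, and where both lay below it no difference was read. A gene passed the test at a Benjamini-Hochberg adjusted p under 0.05 from limma, over 8452 genes tested. Colon and stomach were bulk tissue, so fewer cells of a type and less RNA per cell cannot be told apart.

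Before the results, some arrays need description. The Spdef probe set read 8.86 and 8.63 in stomach KO and 9.08 and 9.25 in colon KO. HET arrays read 9.06 and 8.94 in stomach and 10.27 and 9.81 in colon. The KO arrays thus held signal for Spdef, and whether this probe set lies in the deleted part is not known from the sources used here, so its level does not check the labels. The submitters' processing notes name RMA for both stomach KO arrays and MAS5 for both colon KO arrays, so that note and the tissue cannot be told apart, although every array had a trimmed mean of 500.1. The array labelled colon WT 2 stood apart, with a mean correlation of 0.887 to the other colon arrays against 0.931 to 0.956 for the rest. Its mean level over 16 small intestine genes was 12.58, against 6.37 to 7.67 in the other 5 colon arrays. Xist, an RNA of the inactive X chromosome in female cells, read 7.49 in stomach KO 2 and 5.70 in colon KO 2, against 12.34 to 12.86 on the other arrays. Both low arrays are KO, so each KO minus HET or KO minus WT change also takes in this difference. The HET arrays, which do not include any of these, are the first reference below, and the comparison with WT is given with and without colon WT 2.

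Most tissue-restricted genes kept their place in KO. A gene was called restricted when it passed the test in HET, lay below the limit in 1 tissue and at least 2 log2 units above it in the other. The HET levels come from the HET arrays, while the normalization and the test's variance were shared by all 12 arrays. Of 126 colon-restricted genes, 116 (92.1%) were higher in KO colon by the test, and of 79 stomach-restricted genes, 69 (87.3%) were higher in KO stomach. Among all genes tested, 10.4% were higher in KO colon and 12.3% higher in KO stomach, together 1915 genes or 22.7%, and that total was 1111 without stomach KO 1, 1054 without stomach KO 2 and 888 without stomach KO 2 and colon KO 2, the arrays with low Xist. In HET, 10.1% were higher in colon and 11.9% in stomach, 22.0% in all, and in WT 27.0% differed (26.1% without colon WT 2). The median difference of the colon-restricted genes, with means below the limit raised to it, was 3.93 in HET and 3.78 in KO. For the stomach-restricted genes the medians in size were 3.11 and 3.06. The restricted genes were chosen anew in each alternative fit that follows, so the total from which the kept genes were counted also changed. The kept total was 185 of 205, 192 of 217 when HET and KO arrays were each normalized and fitted alone, 165 of 199 without those low-Xist arrays, and 161 to 201 when each of the 12 arrays was left out in turn.

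Lists of genes grouped by function were also counted. They were chosen with earlier results of these data known, so their shares are not separate support. Of 289 tested genes in 17 lists, 163 (56.4%) passed the test in KO, 96 higher in colon and 67 higher in stomach. All 163 had the same sign in HET, and 162 had it in WT. Over all genes, 99.7% of those higher in KO colon and 99.7% of those higher in KO stomach had the same sign in HET. In WT the shares were 98.1% and 99.2%. In HET, 167 genes of the lists passed, of which 150 passed the same way in KO, 17 did not pass in KO and 0 passed the opposite way. Of all HET calls, 75.6% toward colon and 77.1% toward stomach passed the same way in KO, and 0 the opposite way. Of the 65 genes in these lists that were restricted in HET, 39 of 43 colon genes and 22 of 22 stomach genes passed the same way in KO. The 17 lists do not include the squamous forestomach list. Of all 79 stomach-restricted genes, 10 did not pass in KO, and most of these are squamous or cornified epithelium genes, described below. The share of 22 of 22 thus depends on which lists were counted.

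Of 6 mucins tested, 2 were higher in KO stomach, 2 were higher in KO colon and 2 did not pass. Muc5ac, the gel-forming mucin of gastric surface cells, read 13.88 and 13.85 in stomach KO and 4.13 and 4.44 in colon KO. Stomach was thus at least 7.33 log2 units higher (at least 161-fold, limma adjusted p = 2.78e-09), and the HET bound was 7.34 in size. Muc1, a membrane mucin, averaged 11.77 ± 0.33 (SD, n = 2) in stomach KO and read 4.34 and 6.50 in colon KO, with an adjusted p of 0.00517 by limma and of 0.0505 without the low-Xist arrays. The stomach values lay close together, while the colon values were both under the limit and had no order there.

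Muc3 and Muc13, membrane mucins of the intestinal brush border, ran the other way. Muc3 read 13.86 and 13.96 in colon KO and 6.23 and 5.56 in stomach KO, a difference of at least 7.38. Muc13 read 13.15 and 13.55 in colon KO against 6.41 and 6.44 in stomach KO, a difference of at least 6.82. Both passed the test, and the KO arrays of the organs did not overlap. Over all genes tested, the KO arrays did not overlap for 28.5% higher in colon and 33.6% higher in stomach. Muc4, another membrane mucin, read 5.68 and 8.89 in colon KO and did not pass (adjusted p = 0.0879 by limma), with the colon arrays apart from each other. Emcn, an endothelial sialomucin, differed by -0.63 and did not pass. Muc5b, Muc15 and Muc20 were below the filter and were not tested. Muc2 and Muc6 were not analysed here.

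All 5 trefoil and gastrokine peptides on the array passed in KO. Tff3, the goblet cell trefoil peptide that guards and repairs the mucosa, read 13.66 and 13.78 in colon KO and 7.23 and 6.58 in stomach KO, a difference of 6.82 ± 0.22 (SE) or 113-fold. The HET difference was at least 7.13, and the fitted KO minus HET change of -0.41 had a 95% interval of -1.11 to 0.29. Tff1, the peptide of gastric pit cells, read 14.02 and 14.16 in stomach KO against 6.68 and 6.40 in colon KO. Its paralogue Tff2, of neck and antral gland cells, read 13.70 and 13.79 against 6.01 and 5.90. Both were at or above 13.61 in every stomach array of the series and at or below 7.45 in every colon array.

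Gkn1 and Gkn2, gastrokines secreted by gastric surface cells, were also higher in KO stomach. Gkn2 read 14.27 in both stomach KO arrays and 5.63 and 5.59 in colon KO, at least 213-fold higher in stomach. Gkn1 read 13.95 and 14.05 against 6.01 and 5.0. Their genes are neighbours on chromosome 6 with 0 protein-coding genes between them, as Saa1 and Saa2, described below, are on chromosome 7, and Tff1, Tff2 and Tff3 stand in a row on chromosome 17. The 250 bases upstream of the annotated start are shown for both pairs because each pair moves together and 1 pair marks each organ in KO. They are RefSeq sequences of GRCm38.p6, 5′ to 3′ on the gene's strand, and the capitals mark AGATAA, a core letter string bound by GATA factors, or CATAAA, the reverse complement of TTTATG, a core string bound by CDX factors.
Gkn1, chr6:87350916-87351165, minus strand: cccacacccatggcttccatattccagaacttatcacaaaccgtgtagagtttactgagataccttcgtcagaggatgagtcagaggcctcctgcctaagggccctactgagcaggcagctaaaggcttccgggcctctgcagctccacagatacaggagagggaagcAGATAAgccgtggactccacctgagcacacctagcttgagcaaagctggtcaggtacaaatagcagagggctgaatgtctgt
Gkn2, chr6:87373115-87373364, plus strand: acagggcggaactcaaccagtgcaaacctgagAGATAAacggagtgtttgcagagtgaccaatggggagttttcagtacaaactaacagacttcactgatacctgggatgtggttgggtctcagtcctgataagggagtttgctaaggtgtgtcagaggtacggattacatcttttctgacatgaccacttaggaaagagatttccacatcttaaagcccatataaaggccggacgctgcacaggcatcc
Saa1, chr7:46742981-46743230, minus strand: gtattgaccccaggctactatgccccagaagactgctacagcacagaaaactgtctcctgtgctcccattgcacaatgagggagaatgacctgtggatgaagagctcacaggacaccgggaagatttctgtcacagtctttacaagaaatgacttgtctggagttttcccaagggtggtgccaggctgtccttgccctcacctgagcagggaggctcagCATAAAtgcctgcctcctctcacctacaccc
Saa2, chr7:46751583-46751832, plus strand: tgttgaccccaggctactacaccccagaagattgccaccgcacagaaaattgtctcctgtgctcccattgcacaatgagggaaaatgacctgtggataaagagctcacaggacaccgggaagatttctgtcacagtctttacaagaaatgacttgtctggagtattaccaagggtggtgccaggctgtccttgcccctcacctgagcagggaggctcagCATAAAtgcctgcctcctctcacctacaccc
AGATAA stands at positions -82 to -77 from the start in Gkn1 and -218 to -213 in Gkn2, and CATAAA at -31 to -26 in both Saa1 and Saa2. The Saa pair was identical at 238 of 251 aligned columns (94.8%) and the Gkn pair at 51.0%. Counted on both strands, AGATAA was present upstream of 7.38% of the tested genes with a sequence, 11.1% of the 63 stomach-restricted and 11.5% of the 96 colon-restricted ones, and of 11.4% of all genes in the table. TTTATG was present upstream of 7.91% of tested, 18.8% of colon-restricted and 12.7% of stomach-restricted genes, and of 12.4% of all genes in the table. Only AGATAA and TTTATG, with their reverse complements, were searched, marked and counted. Other GATA strings are therefore not in these shares. For example, TGATAA stands unmarked in the Gkn2 window and its reverse complement TTATCA in the Gkn1 window. The letters describe these windows and are not a site or a cause. Binding by GATA, CDX or any other factor was not tested. Any other role of CATAAA at this distance from the start was not tested either.

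**Figure D1:**
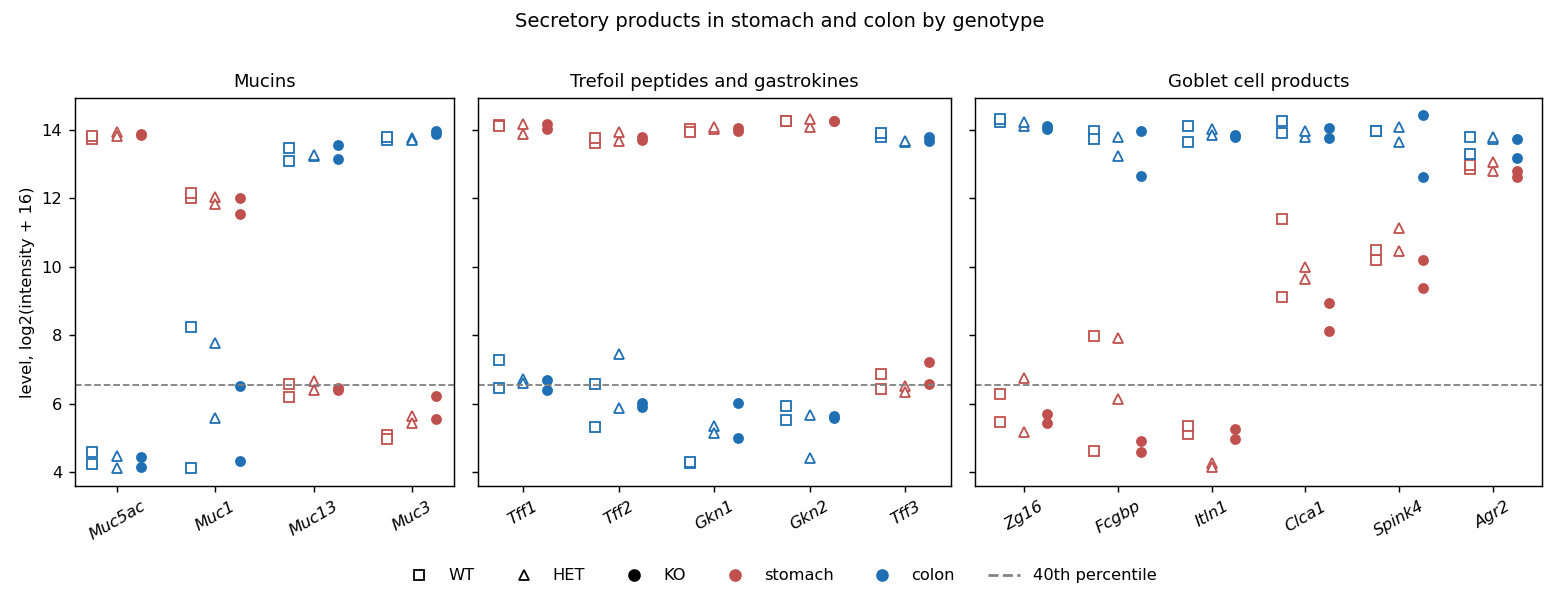
Levels, as log2(intensity + 16), of mucins, trefoil and gastrokine peptides and goblet cell products on each of 12 arrays. Squares are WT, triangles HET and filled circles KO, with stomach in red and colon in blue, and the dashed line is the limit of 6.53. The KO circles of Muc5ac, Tff1 and Gkn2 lie near 14 in stomach and under 7 in colon, and those of Zg16 and Muc3 lie the other way round. Tff3 lies near 14 in colon KO and at 7.23 and 6.58 in stomach KO.

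Most goblet cell products were colonic in KO as in HET. Of 21 tested, 16 were higher in KO colon, 2 higher in KO stomach and 3 did not pass. The HET counts were 16, 2 and 3, with all 18 HET calls also made in KO. With means below the limit raised to it, their median difference was 3.73 in KO and 3.19 in HET. Over all genes tested in KO it was -0.0035. Zg16, a lectin of the goblet cell granule, read 14.01 and 14.12 in colon KO and 5.69 and 5.43 in stomach KO. At least 7.54 log2 units separated the organs (at least 185-fold, limma adjusted p = 1.31e-06), and this was the largest difference so bounded toward colon among the genes that passed.

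Itln1, an intelectin that binds microbial glycans, read 13.78 and 13.85 in colon KO and 5.24 and 4.97 in stomach KO. Guca2a, the precursor of guanylin, which signals fluid secretion, read 14.10 and 13.93 against 5.19 and 5.15. Fcgbp, a mucus-network protein, read 12.66 and 13.97 in colon KO and 4.57 and 4.91 in stomach KO, where HET stomach had read 6.15 and 7.91. All 3 sat at or below the limit in both KO stomachs.

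Other goblet products kept a stomach signal as well. Clca1 and Spink4, a mucus-processing protease and a protease inhibitor, were named after their values were seen. Clca1 read 13.75 and 14.05 in colon KO and 8.94 and 8.12 in stomach KO, a difference of 5.37 against 4.07 in HET. Spink4 read 12.61 and 14.42 in colon KO and 10.20 and 9.39 in stomach KO, a difference of 3.73 against 3.07. The KO minus HET change did not pass for either gene, with 95% intervals of -0.56 to 3.15 and -0.96 to 2.27. Of 16 small intestine genes, 3 were higher in KO stomach and 2 higher in KO colon, beside 12.3% and 10.4% of all genes. Their part in these stomach readings was not tested.

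Retnlb, the goblet cell resistin-like antimicrobial protein, read 10.40 and 14.21 in colon KO and 4.09 and 4.72 in stomach KO, at least 5.78 higher in colon (limma adjusted p = 0.0218). The 2 colon arrays differed widely, and the adjusted p was 0.107 without stomach KO 1, 0.0905 without stomach KO 2, 0.123 without colon KO 2 and 0.248 without the low-Xist arrays. Agr2, a disulfide isomerase needed for mucin folding, was high in both organs, at 13.18 and 13.72 in colon KO and 12.63 and 12.78 in stomach KO. Its difference of 0.74 passed (adjusted p = 0.026 by limma), but the adjusted p was 0.078 to 0.145 without either stomach KO array or without colon KO 2, 0.204 without the low-Xist arrays and 0.123 without quantile normalization. Sytl2 and Sytl4, synaptotagmin-like proteins of granule docking, went against the list and were higher in KO stomach, by 2.02 and 1.51 in size, and Sytl4 did not pass without stomach KO 2 (adjusted p = 0.0608) or without the low-Xist arrays (0.0812).

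Most surface mucous cell genes were gastric in KO. Of 17 tested, 14 were higher in KO stomach, 0 higher in KO colon and 3 did not pass. With means below the limit raised to it, the median difference was -5.24 in KO and -5.58 in HET. Anxa10, an annexin of gastric epithelium, read 13.71 and 13.74 in stomach KO and 4.79 and 4.87 in colon KO. Cldn18, the claudin of gastric tight junctions, read 12.16 and 12.43 against 4.49 and 5.51. Psca, a surface antigen of gastric pit cells, read 13.90 and 13.81 against 7.62 and 7.22, so that it was measurable in KO colon, at 6.44 below stomach. No array of 1 organ came near the other for these 3 genes.

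The 11 tested genes of antral and neck mucous glands did not go 1 way. In KO, 4 were higher in stomach, 2 higher in colon and 5 did not pass, against 5, 5 and 1 in HET. Of the 10 that passed in HET, 6 passed the same way in KO. Over all genes that share was 75.6% toward colon and 77.1% toward stomach. Aqp5, Dmbt1, Glipr1 and Wfdc18 passed in HET but not in KO. Bpifb1, a secreted lipid-binding defence protein, read 13.14 and 13.04 in stomach KO and 4.98 and 5.12 in colon KO. Cxcl17, a mucosal chemokine, read 11.88 and 11.77 against 4.40 and 5.98. Pigr, the receptor that carries IgA across epithelium, went the other way, at 13.79 and 13.80 in colon KO and 6.53 and 6.87 in stomach KO. HET stomach read 8.78 and 7.6 for Pigr, and the KO minus HET change of 1.59 had an unadjusted p of 0.0132 by limma and did not pass after adjustment.

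Acid-secreting and zymogenic genes marked the stomach in KO as in HET. Of 14 parietal cell genes, 12 were higher in KO stomach and 0 higher in KO colon, the same counts as in HET. Atp4a and Atp4b, the subunits of the gastric proton pump, read 13.82 and 13.82 and 14.21 and 14.02 in stomach KO, against 4.08 and 5.65 and 6.64 and 6.40 in colon KO. Kcne2, a potassium channel subunit of parietal cells, was at least 5.65 higher in stomach.

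Of 8 chief cell genes, 7 were higher in KO stomach. Pgc, the precursor of gastricsin, read 14.25 in both stomach KO arrays and 4.57 and 4.74 in colon KO. Chia1, the acidic chitinase, and Cblif, gastric intrinsic factor, were at least 7.66 and 7.35 higher in stomach. Pga5, a pepsinogen, read 12.18 and 11.68 in stomach KO, below the HET values of 13.14 and 12.82, and 6.37 and 6.03 in colon KO. Its KO minus HET change of 1.24 toward a smaller difference (unadjusted p = 0.00374 by limma) was among the 5 smallest p-values of that comparison and did not pass, and the colon means lay under the limit in both genotypes. Exocrine pancreas genes also ran toward stomach, with 6 of 14 higher in KO stomach and 1, Zg16, higher in KO colon. Their mean level was 9.48 and 9.22 in stomach KO and 7.16 and 9.04 in colon KO, and their part in the chief cell list, with which they share Clps, was not tested.

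Hormone genes that passed were divided between the organs. Of 24 enteroendocrine genes, 6 were higher in KO colon, 6 higher in KO stomach and 12 did not pass, against 10, 4 and 10 in HET. Ghrl, the gene of ghrelin, read 13.52 and 13.54 in stomach KO and 5.04 and 4.28 in colon KO. Sst, the gene of somatostatin, was measurable in both organs, at 12.10 and 12.23 in stomach KO and 9.94 and 8.27 in colon KO. Gcg, which encodes glucagon-like peptides, read 11.63 and 11.15 in colon KO and 6.51 and 6.59 in stomach KO. Pyy, the peptide YY gene of distal endocrine cells, read 10.12 and 10.69 against 6.42 and 6.45. The colon KO arrays differed from each other in Nts, the gene of neurotensin, at 11.76 and 7.01, and in Sct, the gene of secretin, at 10.11 and 7.44. Both passed as higher in colon, and Nts had an adjusted p of 0.108 by limma without stomach KO 1 and 0.0675 without stomach KO 2, and of 0.0525 in a fit of the 4 KO arrays alone.

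Absorptive genes were colonic without exception among those that passed. Of 28 tested, 24 were higher in KO colon, 0 higher in KO stomach and 4 did not pass. The counts were the same in HET, with 23 of the 24 calls shared. With means below the limit raised to it, the median difference was 3.93 in KO and 4.165 in HET. Car1, the colonic carbonic anhydrase, read 13.82 and 13.50 in colon KO and 4.79 and 5.52 in stomach KO, at least 7.13 higher in colon. Its adjusted p by limma was 0.00737, 0.0551 without stomach KO 1 and 0.098 without the low-Xist arrays. Slc26a3, the chloride-bicarbonate exchanger, read 12.58 and 12.83 against 4.54 and 5.53. Cyp2c55, a colonic cytochrome P450, read 13.88 and 13.16 against 6.06 and 6.63.

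**Figure D2:**
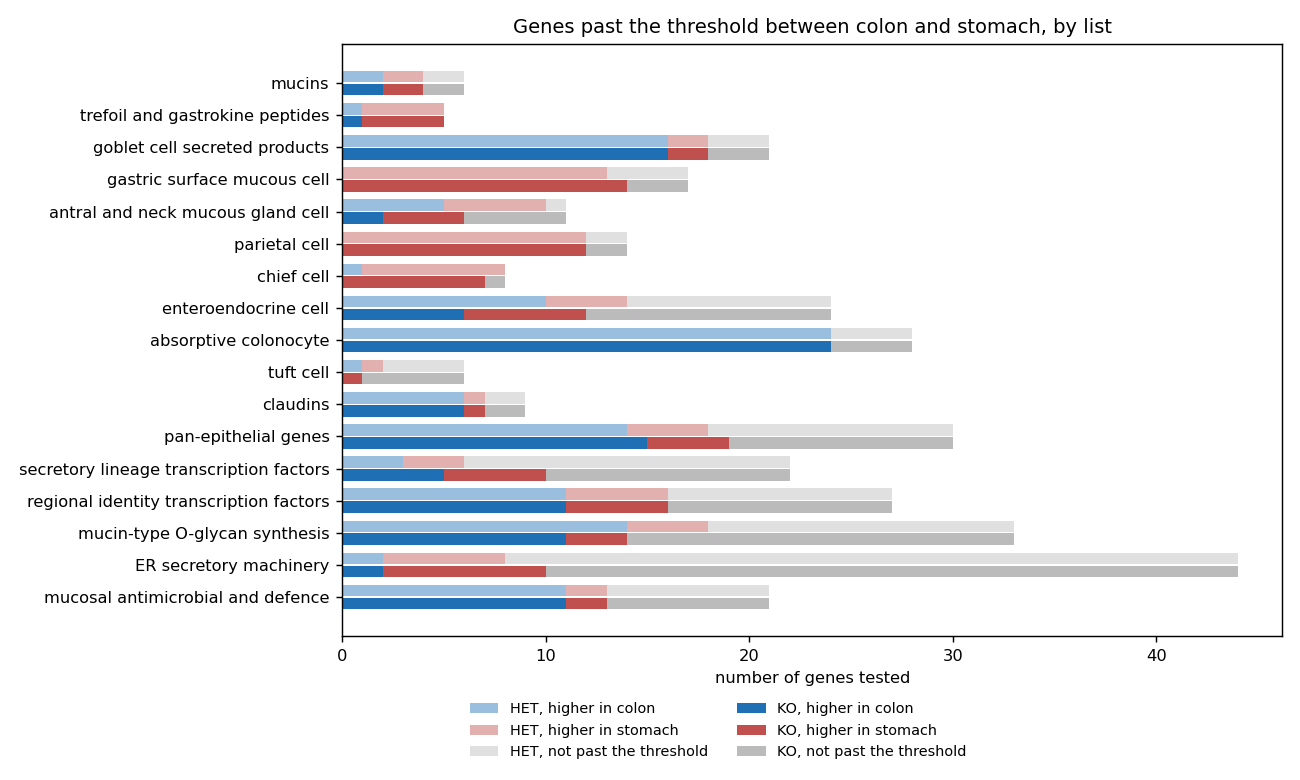
Number of genes tested in each of 17 lists, divided into those higher in colon (blue), higher in stomach (red) and not past the threshold (grey) by limma at an adjusted p under 0.05. Pale bars are HET and full bars KO. Absorptive colonocyte genes gave 24 colon calls of 28 in both genotypes, and goblet cell products 16 colon and 2 stomach calls of 21 in both.

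Junction and general epithelial genes separated by member rather than by family. Of 9 claudins tested, 6 were higher in KO colon and 1, Cldn18, higher in KO stomach. Cldn7 read 12.82 and 12.95 in colon KO and 6.00 and 5.76 in stomach KO, and Cldn3 read 12.47 and 12.10 against 4.31 and 5.18. Both are barrier-forming claudins. Cldn2, a pore-forming claudin, read 10.76 and 10.08 against 5.64 and 4.52. Of 30 pan-epithelial genes, 15 were higher in KO colon, 4 higher in KO stomach and 11 did not pass. Cdh17, the liver-intestine cadherin, read 13.21 and 13.09 in colon KO and 4.43 and 5.24 in stomach KO. Vil1, the villin of brush borders, was measurable in both organs and 3.63 higher in colon. Krt23, a keratin, went against the list, at 10.21 and 9.97 in stomach KO and 7.11 and 6.39 in colon KO. Lgals2, a galectin, read 14.00 and 13.82 in stomach KO and 6.95 and 6.24 in colon KO (adjusted p = 0.0133 by limma). Without stomach KO 1, stomach KO 2 or colon KO 2 its adjusted p was 0.0723, 0.0712 and 0.0604, it was 0.168 without the low-Xist arrays, and the array labelled colon WT 2 read 14.05.

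Of 27 tested transcription factors of regional identity, 11 were higher in KO colon, 5 higher in KO stomach and 11 did not pass. Of the 16 that passed in HET, 15 passed the same way in KO, Hoxa10 did not, and Nkx2-3 passed in KO without passing in HET. Cdx1 and Cdx2, the homeobox factors of intestinal identity, read 10.01 and 10.02 and 10.58 and 9.81 in colon KO. In stomach KO they read 4.13 and 4.20 and 4.23 and 4.92, all under the limit. Gata4, a factor of the glandular stomach, read 10.24 and 10.43 in stomach KO and 5.20 and 5.43 in colon KO. Sox2, a foregut factor, read 7.64 and 8.21 against 4.84 and 4.87, and Sox21 8.86 and 8.94 against 5.09 and 6.43. For these 5 factors the arrays of the organs did not overlap in any genotype.

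Of 22 factors of the secretory lineage, 5 were higher in KO colon, 5 higher in KO stomach and 12 did not pass, against 3, 3 and 16 in HET. Over all genes tested, 10.4% were higher in KO colon and 12.3% in KO stomach, and 10.1% and 11.9% in HET. Some of the KO calls depended on the processing. Foxa2 and Foxa3, higher in KO stomach, each did not pass in 10 of 23 alternative fits, and Dll1, higher in KO colon, in 5 of 23. Atoh1, which commits intestinal cells to the secretory lineage, read 10.06 and 10.78 in colon KO and 5.91 and 5.21 in stomach KO, a difference of at least 3.89 against 4.18 in HET. Foxq1, a factor of gastric mucous cells, read 10.70 and 10.78 in stomach KO and 5.43 and 6.60 in colon KO. Bhlha15, the scaling factor of zymogenic cells, read 10.17 and 9.67 against 6.08 and 7.97. Xbp1, which drives secretory cell expansion, was high in both organs and passed at -0.74 in KO, and did not pass in 8 of the leave-one-out fits (adjusted p up to 0.221 by limma, without stomach KO 2). Creb3l4, an ER-bound factor named after its values were seen, read 5.20 and 5.84 in stomach KO and 6.09 and 6.16 in colon KO, all below the limit, so no regional difference was read. It read 8.54 in both HET stomachs and 9.30 and 9.02 in HET colon, and no test between genotypes within a tissue was made here.

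Enzymes that build mucin-type O-glycans were divided, and 11 of 33 were higher in KO colon, 3 higher in KO stomach and 19 did not pass, against 14, 4 and 15 in HET. St6galnac6, a sialyltransferase, read 11.73 and 12.21 in colon KO and 6.11 and 5.81 in stomach KO. Gne, which starts sialic acid synthesis, read 11.12 and 11.77 against 8.10 and 7.36, and St6gal1, another sialyltransferase, 10.08 and 10.52 against 6.85 and 7.25. Without the low-Xist arrays St6galnac6 and Gne did not pass (adjusted p = 0.117 and 0.0749 by limma). Galnt2, which adds the first sugar of the O-glycan, was 1.75 lower in colon. The 44 genes of the ER secretory machinery lay near equal, with 8 higher in KO stomach, 2 higher in KO colon and a median difference of -0.20. Pdia5, a disulfide isomerase, read 9.58 and 10.43 in colon KO and 7.54 and 7.76 in stomach KO, and did not pass without the low-Xist arrays (adjusted p = 0.0971 by limma). Herpud1 and Ero1b, of ER-associated degradation and oxidative folding, were 1.5 and 1.71 lower in colon.

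**Figure D3:**
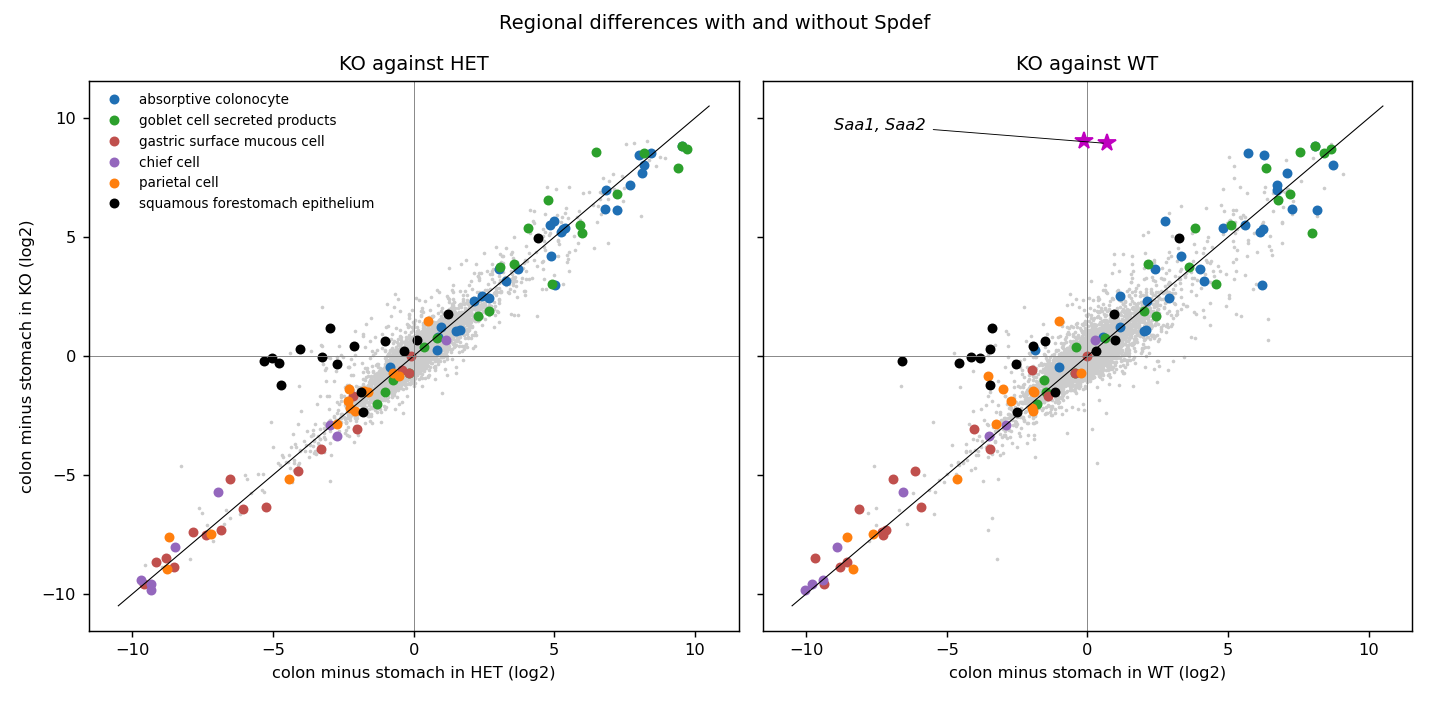
Colon minus stomach difference (log2) in KO on the vertical axis against the same difference in HET (left) and WT (right) for 8452 genes, with the members of 6 lists in colour and the line of equality. Goblet, colonocyte, surface mucous and chief cell genes lie along the line far from 0, squamous forestomach genes lie near 0 in KO but below 0 in HET, and Saa1 and Saa2 lie near 9 in KO and near 0 in WT. The KO arrays are shared by both panels.

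The change of the regional difference between genotypes was tested directly. Between KO and HET, 0 of 8452 genes passed (0.0%) and 183 (2.17%) had an unadjusted p under 0.05, by limma. Among the 289 genes of the 17 lists, 6 (2.08%) had an unadjusted p under 0.05. This does not show equal differences: the 95% interval of the KO minus HET change reached 0.78 log2 units on either side at the median over all genes, and 1.53 over the restricted genes. For Muc5ac the interval was -0.59 to 0.60, for Zg16 -1.07 to 1.69, for Cldn7 -0.96 to 0.72 and for Muc1 -4.93 to 2.76. These are fitted values, and the dimmer organ of each of these genes lay under the limit in both genotypes, apart from Muc1 in HET colon (mean 6.66). The 5 smallest p-values belonged to Ccl20, Cgref1, Pga5, Tesc and Dnajb5. Without stomach HET 2, 8 genes passed, and without colon KO 1, 2 genes passed.

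Cgref1, a secreted calcium-binding protein, read 9.04 and 9.40 in colon KO and 8.36 and 8.46 in stomach KO, where HET read 11.15 and 11.19 in colon and 9.37 and 9.13 in stomach. The KO arrays were lower than the HET and WT arrays in each organ, and the change of the regional difference was -1.11 (unadjusted p = 0.00196 by limma). On the other Cgref1 probe set, above the limit in both organs of KO and HET, the change was -0.62 (unadjusted p = 0.1885 by limma). Tesc, a calcineurin B-like calcium-binding protein, read 6.65 and 6.13 in colon KO and 8.89 and 8.47 in colon HET, and 11.56 to 11.70 in the stomach of both genotypes. Its change had the same sign as that of Cgref1. Ccl20, the chemokine that draws CCR6-bearing cells, read 4.30 and 4.70 in stomach KO and 6.50 and 7.22 in colon KO, close to or below the limit throughout. For Dnajb5, a heat shock cochaperone, the change was 1.33 on the probe set used and -0.73 and -0.14 on its 2 other probe sets, of which the first lay under the limit in KO and HET.

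**Figure D4:**
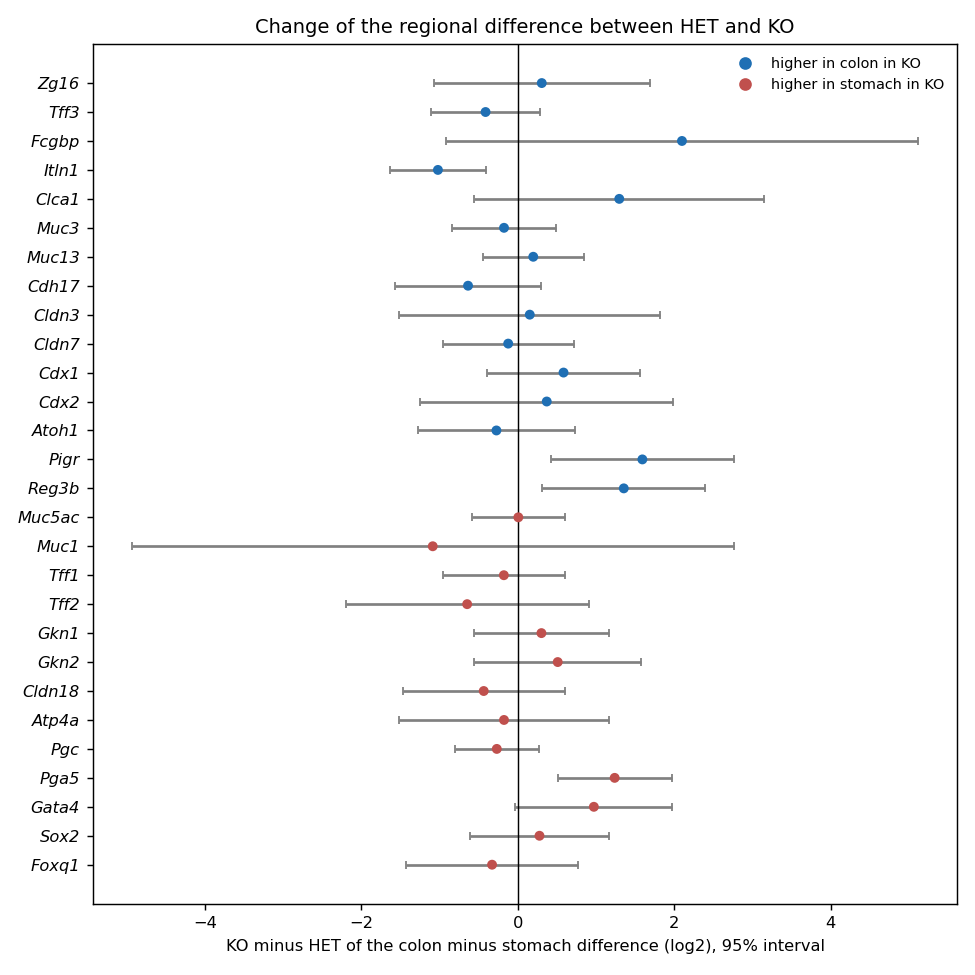
KO minus HET change of the colon minus stomach difference (log2) for 28 genes, with 95% intervals from limma. Blue points are genes higher in colon in KO and red points genes higher in stomach in KO. The intervals of Itln1, Pigr, Reg3b and Pga5 do not include 0, and none of these genes passed the adjusted test. For 25 of the 28 genes, at least 1 of the 4 tissue means lay under the limit of 6.53, so that those fitted changes take in readings there.

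Against WT, 390 genes (4.61%) had an unadjusted p under 0.05, among them 19 of the 289 in the lists, and 2 genes passed (0.0237%). These were Saa1 and Saa2, the acute-phase serum amyloid A proteins made by liver and by inflamed or colonised gut epithelium. Saa1 read 13.01 and 13.28 in colon KO and 4.05 and 4.38 in stomach KO, at least 97.8-fold higher in colon. In colon HET it read 12.82 and 12.87, and in colon WT 5.73 and 5.56. Saa2 read 13.08 and 13.34 in colon KO, 12.82 and 12.90 in colon HET and 5.53 and 4.26 in colon WT. On the probe sets used, both genes were therefore high in the colon of KO and HET arrays and under the limit in every stomach array and both WT colon arrays. A second Saa2 probe set averaged 8.89 in colon KO and 5.26 in stomach KO, the same direction with a smaller colon level. Whether the probe sets tell the 2 genes apart was not tested.

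The KO minus WT change had an adjusted p of 0.00471 for each gene by limma, and of 0.0124 for Saa1 and 0.0123 for Saa2 without colon WT 2. Its size was not read, since the stomach means of both genotypes and the colon WT mean lay under the limit. Neither gene passed without stomach KO 2 (adjusted p = 0.0723), without the low-Xist arrays (0.513) or with an offset of 1 (0.533). Without colon WT 2, 9 of 8404 genes passed (0.107%), and without colon WT 1, 396. Among all defence genes in the lists, 11 of 21 were higher in KO colon and 2 higher in KO stomach. Of the 13 that passed in HET, 12 passed the same way in KO. For the KO minus HET change, 4 of the 21 (Duoxa2, Itln1, Pigr and Reg3b) had an unadjusted p under 0.05 by limma, beside 2.17% of all genes, and none passed. Reg3b, a bactericidal lectin, read 13.75 and 12.85 in colon KO and 4.14 and 4.67 in stomach KO, and it was high in colon WT too, at 14.05 and 14.16. Colon WT was thus high for Reg3b and under the limit for Saa1 and Saa2.

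A minority of the restricted genes did not pass in KO. All 10 stomach genes of this kind read near or under the limit in stomach KO, and 8 of them are cornified or squamous epithelium genes. Krtdap, a keratinocyte differentiation protein, read 5.0 and 4.20 in stomach KO, 12.38 and 8.25 in stomach HET and 10.54 and 11.12 in stomach WT. Sprr3, a cornified envelope protein, read 4.43 and 5.04 in stomach KO, 11.54 and 7.62 in stomach HET and 8.65 and 9.78 in stomach WT. Krt13, a keratin of lining squamous epithelium, read 5.98 and 5.22 in stomach KO, 11.13 and 6.79 in stomach HET and 9.23 and 9.76 in stomach WT. For each of the 3 genes the KO stomachs lay below every HET and WT stomach, and the HET stomachs differed widely from each other.

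Of 16 squamous forestomach genes tested, 8 were higher in HET stomach, 7 in WT stomach and 1, Sprr1a, in KO stomach (adjusted p = 0.0669 to 0.101 without either stomach KO array or without colon KO 1), while 1, Gsdmc, was higher in KO colon. Over all genes tested, 11.9% were higher in HET stomach, 16.2% in WT stomach, 12.3% in KO stomach and 10.4% in KO colon. The mean level of the squamous genes was 5.82 and 6.10 in stomach KO, 9.48 and 6.92 in stomach HET and 7.65 and 8.54 in stomach WT. None of the squamous genes passed the KO minus HET test, and 6 of 16 had an unadjusted p under 0.05 by limma, beside 2.17% of all genes. The genes that passed when stomach HET 2 was left out included Krtdap, Sprr3 and Asprv1. The forestomach is the squamous part of the mouse stomach, and how much of it each sample held was not measured here. Mup3 and Alb, which are liver-type genes, completed the 10. Over 13 liver genes the mean level was 6.16 and 5.95 in stomach KO against 7.0 and 8.70 in stomach HET.

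Of the 10 colon-restricted genes that did not pass, some were split between the KO colons. The following were named after their values were seen. Slc51a, a subunit of the bile acid exporter, read 10.75 in colon KO 1 and 5.72 in colon KO 2, with 10.15 in both HET colons. Osr2, a zinc-finger factor, read 10.55 and 4.73, against 10.48 and 9.37 in HET. Without colon KO 2 both passed (adjusted p = 0.00742 and 0.000848 by limma). Hoxb13, the most posterior Hox factor of its cluster and not a restricted gene by the rule, ran the other way, at 4.31 in colon KO 1 and 10.81 in colon KO 2, with 4.39 and 8.24 in colon HET. Hoxa10 and Wfdc18 were higher in colon on both KO arrays, at 7.74 and 9.51 and at 7.91 and 9.83, but missed the threshold (adjusted p = 0.0677 and 0.0608) and passed without colon WT 2.

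**Figure D5:**
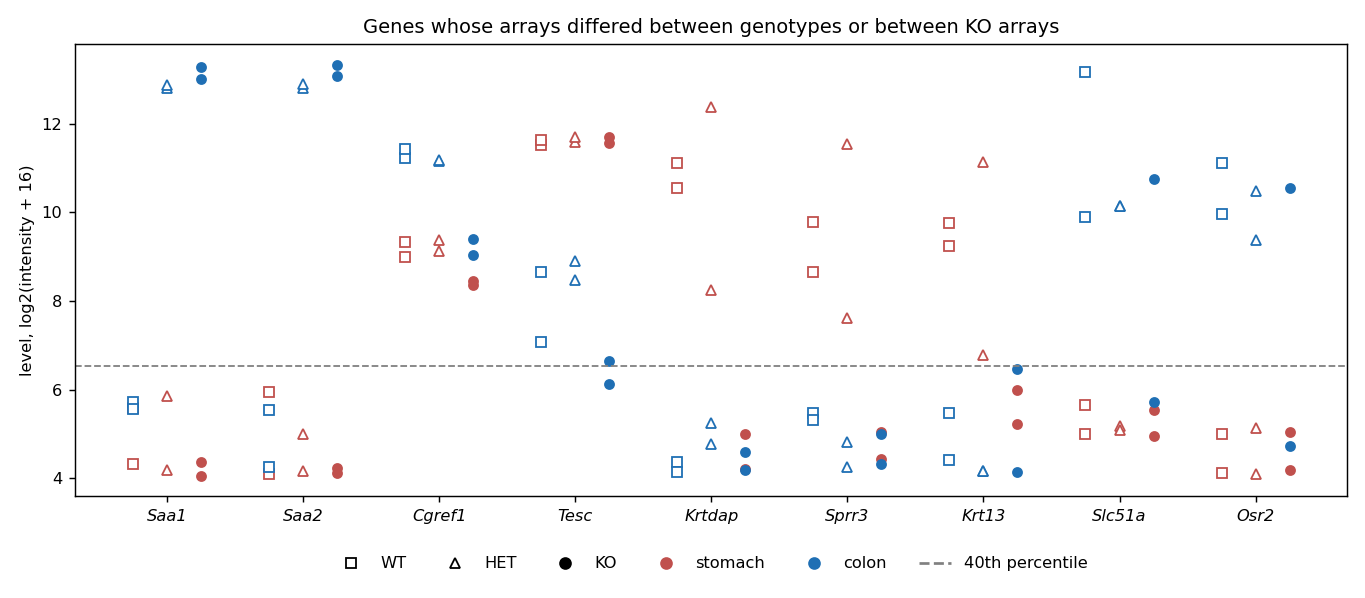
Levels, as log2(intensity + 16), on each array of 9 genes whose arrays differed between genotypes or between the KO arrays. Squares are WT, triangles HET and filled circles KO, with stomach in red and colon in blue, and the dashed line is the limit of 6.53. Saa1 and Saa2 lie near 13 in KO and HET colon but under 6 in WT colon, and the filled blue circles of Slc51a and Osr2 lie far apart.

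Markers of other cell types also moved between the KO organs. Of 29 proliferation genes, 13 were higher in KO colon, against 1 in HET. Over all genes tested, 10.4% were higher in KO colon and 10.1% in HET colon. Cdk1, a mitotic kinase, read 9.6 and 10.31 in colon KO and 8.72 and 8.52 in stomach KO. It passed in all 23 alternative fits, while Mki67, Ccna2 and Top2a of this list did not pass in 2, 3 and 7 of 23. Without the low-Xist arrays the fitted differences were 0.75 for Mki67, 0.98 for Ccna2 and 0.63 for Top2a, against 1.32, 1.23 and 1.14 with all arrays. The list mean was 8.19 and 8.85 in colon KO, 7.98 and 8.10 in colon HET and 7.97 and 7.83 in stomach KO. For the KO minus HET change, 1 of the 29 had an unadjusted p under 0.05 by limma. Of 11 B and plasma cell genes, 3 were higher in KO colon, led by Jchain, the joining chain of secreted IgA and IgM, at 13.01 and 13.71 against 7.13 and 8.30. Of 16 enteric neuron and glia genes, 0 passed in KO and 10 were higher in colon in HET. Their list mean was 7.75 and 7.12 in colon KO and 7.94 and 8.22 in colon HET. For the KO minus HET change, 3 of these 16 had an unadjusted p under 0.05 by limma, beside 2.17% of all genes. The mean over adipose genes was 9.22 and 7.37 in colon KO and 8.52 and 8.43 in stomach KO. The part of these lists in the secretory and epithelial results was not tested.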

How the data were processed

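RNA was hybridized to Affymetrix HT Mouse Genome 430 arrays, per the labels' protocols. The deposited table holds a linear intensity for each of 22716 probe sets, and per the submitters' processing notes 9 arrays were processed with MAS5 and 3 with RMA (stomach KO 1 and 2 and colon WT 1). Control probe sets (90) were dropped, which leaves 22626, with a single gene for 18003, several for 287 and none for 4336, and 17977 symbols were updated through gene identifiers. The probe set with the highest mean stood for each of 11807 genes. Values were taken as log2(intensity + 16), quantile normalized over 12 arrays and tested where at least 2 arrays reached the 40th percentile (8452 genes). The test was limma's moderated test (version 3.58.1, R 4.3.3) on group means with a trend on intensity, 6 residual and 3.30 prior degrees of freedom, and Benjamini-Hochberg adjustment over all genes tested. The fit was tested on simulated data, and 2 arrays per group limit the precision.

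The members and gene lists were chosen with earlier results of these data known. Genes were named by rule: Spdef, Zg16, Tff3, Muc5ac, Saa1 and Saa2, the 10 largest differences toward each organ, all mucins and trefoil or gastrokine peptides, up to 8 of each other list (4 for lists of other cell types) and those against its direction, the smallest p-values of each genotype comparison and up to 10 restricted genes that did not pass. Of the 173 named genes, 57 had other probe sets, and 64 of the 65 of these above the limit had the same direction in KO. Same-numbered arrays were not taken as pairs, since their deviations correlated at 0.02 to 0.08. Whether any share an animal is not known, and the low-Xist arrays carry the same number.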

Additional observations from a re-analysis of the deposited data

Results flagged for a closer look

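Saa2 and Saa1 had a colon minus stomach difference that was larger in KO than in WT, with an adjusted p of 0.00471 each in limma's test of that change. The fitted changes of 9.15 and 8.23 log2 units are not read as sizes or as an order, since 3 of the 4 means behind each lay under the limit of 6.53. Saa2 read 13.08 and 13.34 in colon KO and 5.53 and 4.26 in colon WT, and KO colon was higher than KO stomach by at least 6.68 for Saa2 and at least 6.61 for Saa1. Neither gene passed without stomach KO 2 (adjusted p = 0.0723), without the low-Xist arrays (0.513) or with an offset of 1 (0.533). The KO minus HET change did not pass for either gene. Whether the probe sets tell the 2 genes apart was not tested.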

How the results depend on the processing

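Across 19 to 23 alternatives to the normalization, offset, filter, trend, arrays and block that tested a named gene, 0 values reversed, and 95 of 150 named genes that passed in KO did so under every one that tested them, while 44 did not pass without the low-Xist arrays. The count of genes differing between KO colon and stomach was 1054 to 2661 when each array was left out, and 888 without the low-Xist arrays stomach KO 2 and colon KO 2, an alternative added after seeing the data. Leaving out an array gave 946 to 2596 genes in HET and 1100 to 2947 in WT. The KO minus HET change gave 0 to 8 genes, with 8 without stomach HET 2 and 2 without colon KO 1. The KO minus WT change gave 0 to 396, with 0 without stomach KO 2, 6 without stomach HET 2, 9 without colon WT 2 and 396 without colon WT 1. It also gave 0 genes with an offset of 1 and 0 without the low-Xist arrays. The causes of these changes were not tested. Taking the replicate number as a block within genotype gave 1654 KO genes, of which 1568 were among the 1915, and as a block over all arrays 1820. The kept count of restricted genes was 185 of 205, 181 of 214 with WT as the reference and, added after seeing the data, 192 of 217 when HET and KO arrays were each normalized and fitted alone. Where an array is left out, the lone sample is assumed to vary like the other groups. Signals under the limit of 6.53 give bounds, not sizes.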
